A study of Mus musculus with 35 samples.

Results

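Transcripts of 9 B cell genes, Cd79a, Cd79b, Blnk, Cd22, Ms4a1, Fcmr, Cxcr5, Pax5 and Vpreb3, were followed in whole mouse lung by bulk RNA sequencing. They were taken by gene symbol from the 54532 gene entries of the count and FPKM tables, and all 9 symbols were found with a single entry each. The series held 34 labelled libraries, 1 mouse each, in 12 groups set by sex, genotype and oxygen. The genotypes were wildtype B6/129SJ2 mice (Control), mice with global knockout of caveolin-1, the coat protein of caveolae (Cav1-KO, Cav1(tm1Mls/)J), and the same knockout with Cav1 put back in endothelial cells alone (Cav1-RC), so that both of the latter share the knockout in all other lung cells. Each genotype was kept in room air (Normoxia) or in 10% oxygen (Hypoxia) for 6 weeks as adults of at least 3 months. Groups were of 3 mice, except that the females of Cav1-KO and of Cav1-RC in Normoxia were 2 each. The questions addressed were how loss of Cav1, its return to endothelium, oxygen and sex relate to the level of these transcripts. The sources read here do not name the promoter that drives Cav1 in Cav1-RC endothelium. Tests measure the spread between single mice, and comparisons that use the same group of mice are not independent of each other.

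A B cell senses antigen through membrane immunoglobulin held in a complex with the signalling chains encoded by Cd79a (Ig-alpha) and Cd79b (Ig-beta), and Blnk is the adaptor that links the activated kinases of this complex to downstream enzymes. Cd22 is an inhibitory co-receptor of the complex, Ms4a1 encodes CD20, Fcmr encodes the Fc receptor for IgM, and Cxcr5 is the receptor for the follicular chemokine Cxcl13. Pax5 is the transcription factor that sets and holds B cell identity, and Vpreb3 is a relative of the surrogate light chain that is found in precursor and some mature B cells. The lung holds B cells in blood, in the interstitium and, under chronic inflammation, in lymphoid aggregates beside airways and vessels. In whole-lung RNA, fewer cells of a type and less RNA per cell cannot be told apart.

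The entries lay, in mm10, at Cd79a (ENSMUSG00000003379, chr7:24897381-24902197, plus strand), Cd79b (ENSMUSG00000040592, chr11:106311341-106314762, minus strand), Blnk (ENSMUSG00000061132, chr19:40928927-40994535, minus strand), Cd22 (ENSMUSG00000030577, chr7:30865402-30880342, minus strand), Ms4a1 (ENSMUSG00000024673, chr19:11249675-11266241, minus strand), Fcmr (ENSMUSG00000042474, chr1:130865669-130880791, plus strand), Cxcr5 (ENSMUSG00000047880, chr9:44511787-44561877, minus strand), Pax5 (ENSMUSG00000014030, chr4:44524757-44710487, minus strand) and Vpreb3 (ENSMUSG00000000903, chr10:75943057-75949657, plus strand). All are protein coding. The last 110 bases of the 3′ end of Cxcr5 overlap Bcl9l on the other strand, a gene with up to 3176 counts in a library, and reads in that stretch could belong to either gene. The other genes that overlap a member, among them a pseudogene inside Vpreb3 and an antisense gene across Ms4a1, had at most 12 counts in any library.

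RefSeq (GRCm38.p6) gave a promoter for 6 of the 9 genes, Cd79a, Blnk, Cd22, Fcmr, Pax5 and Vpreb3. The windows of Vpreb3 and Pax5 are shown because these genes departed from the other members in the comparisons, and because both windows lie clear of any annotated exon. Each covers the 250 bases before the transcription start, on the strand of the gene. Capitals mark the octamer ATGCAAAT, read here as its reverse complement, and the Ets core AGGAAGT, read here as ACTTCCT.
Vpreb3 (chr10:75948050-75948299, plus strand): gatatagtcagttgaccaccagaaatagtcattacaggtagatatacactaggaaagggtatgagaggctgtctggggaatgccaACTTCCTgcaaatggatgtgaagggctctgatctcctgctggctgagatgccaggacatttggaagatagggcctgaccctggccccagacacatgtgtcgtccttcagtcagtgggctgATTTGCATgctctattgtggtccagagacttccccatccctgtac
Pax5 (chr4:44710695-44710944, minus strand): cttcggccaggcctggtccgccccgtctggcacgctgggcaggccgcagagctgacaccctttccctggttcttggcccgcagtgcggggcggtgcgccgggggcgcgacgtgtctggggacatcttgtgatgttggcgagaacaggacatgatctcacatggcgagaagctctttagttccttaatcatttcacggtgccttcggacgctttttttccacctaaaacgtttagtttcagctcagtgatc
The Vpreb3 window lies in the intron after the first exon of a longer annotated Vpreb3 transcript and ends at the base before the start of the shorter one. The Pax5 window lies upstream of the Pax5 gene model of the count table and held none of the motifs searched.

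The motifs were chosen with these windows in view and searched on both strands. The octamer stood in the Vpreb3 and Blnk windows, from -45 and -130 bases before the RefSeq start. Both octamers lie inside the gene models of the count table, which start further upstream. The sites with 10 bases on either side are printed to show how far the likeness runs, with the octamer in capitals.
Vpreb3 (chr10:75948245-75948272, plus strand): cagtgggctgATTTGCATgctctattgt
Blnk (chr19:40994334-40994361, minus strand): actggaagggATTTGCATgcccaataag
The longest run that both sites share is 11 bases, GATTTGCATGC. Of 32851 promoter windows of this length in RefSeq, 1.6% held the octamer. The Ets core stood in the windows of Cd79a, Vpreb3 and Blnk, again inside their gene models, and in 7.69% of all windows. The letters of these motifs do not overlap. A match in letters describes the sequence and was not tested for binding.

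Library totals ran from 12425535 to 33343006 counts. Cav1 stood at 979.7 to 1363 CPM (counts scaled to the library total) in Control, 1.61 to 3.90 in Cav1-KO and 1.48 to 6.53 in Cav1-RC, so the Cav1 entry checks the Control label but does not tell Cav1-RC from Cav1-KO libraries. Of the 18 libraries labelled male, 3 had Xist at the level of females and next to no Ddx3y: male Cav1-RC Normoxia replicates 1 and 2 and male Control Hypoxia replicate 2. The labels were kept, and where the number of members called changed without these libraries, that number is given beside the result. The mice of 12 libraries were also on the study's list of animals used for western blots, and these libraries stood apart from the other 22, with 7.3% of all genes higher and 6.21% lower on the list at the thresholds used below. The list held every Cav1-KO Hypoxia mouse, every male Control Hypoxia mouse and 1 mouse each of 3 female groups (Control in Normoxia, Control in Hypoxia and Cav1-RC in Normoxia), and none of the other 6 groups. In the comparisons of Cav1-RC with Cav1-KO in Hypoxia and of Hypoxia with Normoxia in Cav1-KO, in both sexes, and in males of Cav1-RC against Control in Hypoxia and Hypoxia against Normoxia in Control, condition cannot be told apart from being on the list. Lung genes were high in every library, with Sftpc, the surfactant gene of alveolar type 2 cells, at 8752 CPM or more and Pecam1, of endothelium, at 561 CPM or more.

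All 9 genes were measured in every library, from 19 counts of Fcmr in the lowest library upward. Per length, as FPKM (fragments per kilobase of transcript, scaled to depth), the median level over 34 libraries was highest for Vpreb3, at 27.0. Cd79a and Cd79b followed at 13.8 and 13.3 FPKM, a level difference far inside their range over libraries (4.19 to 33.0 and 5.17 to 28.1). The surface receptors were lower, with medians of 3.34 FPKM for Fcmr, 2.50 for Cd22, 1.56 for Ms4a1 and 1.29 for Cxcr5. Blnk and Pax5 had medians of 1.38 and 1.25 FPKM. The signalling pair of the receptor complex thus stood above its adaptor and above the transcription factor in transcript level per length, and the ranges of Blnk, Cxcr5, Ms4a1 and Pax5 overlapped.

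**Figure D1:**
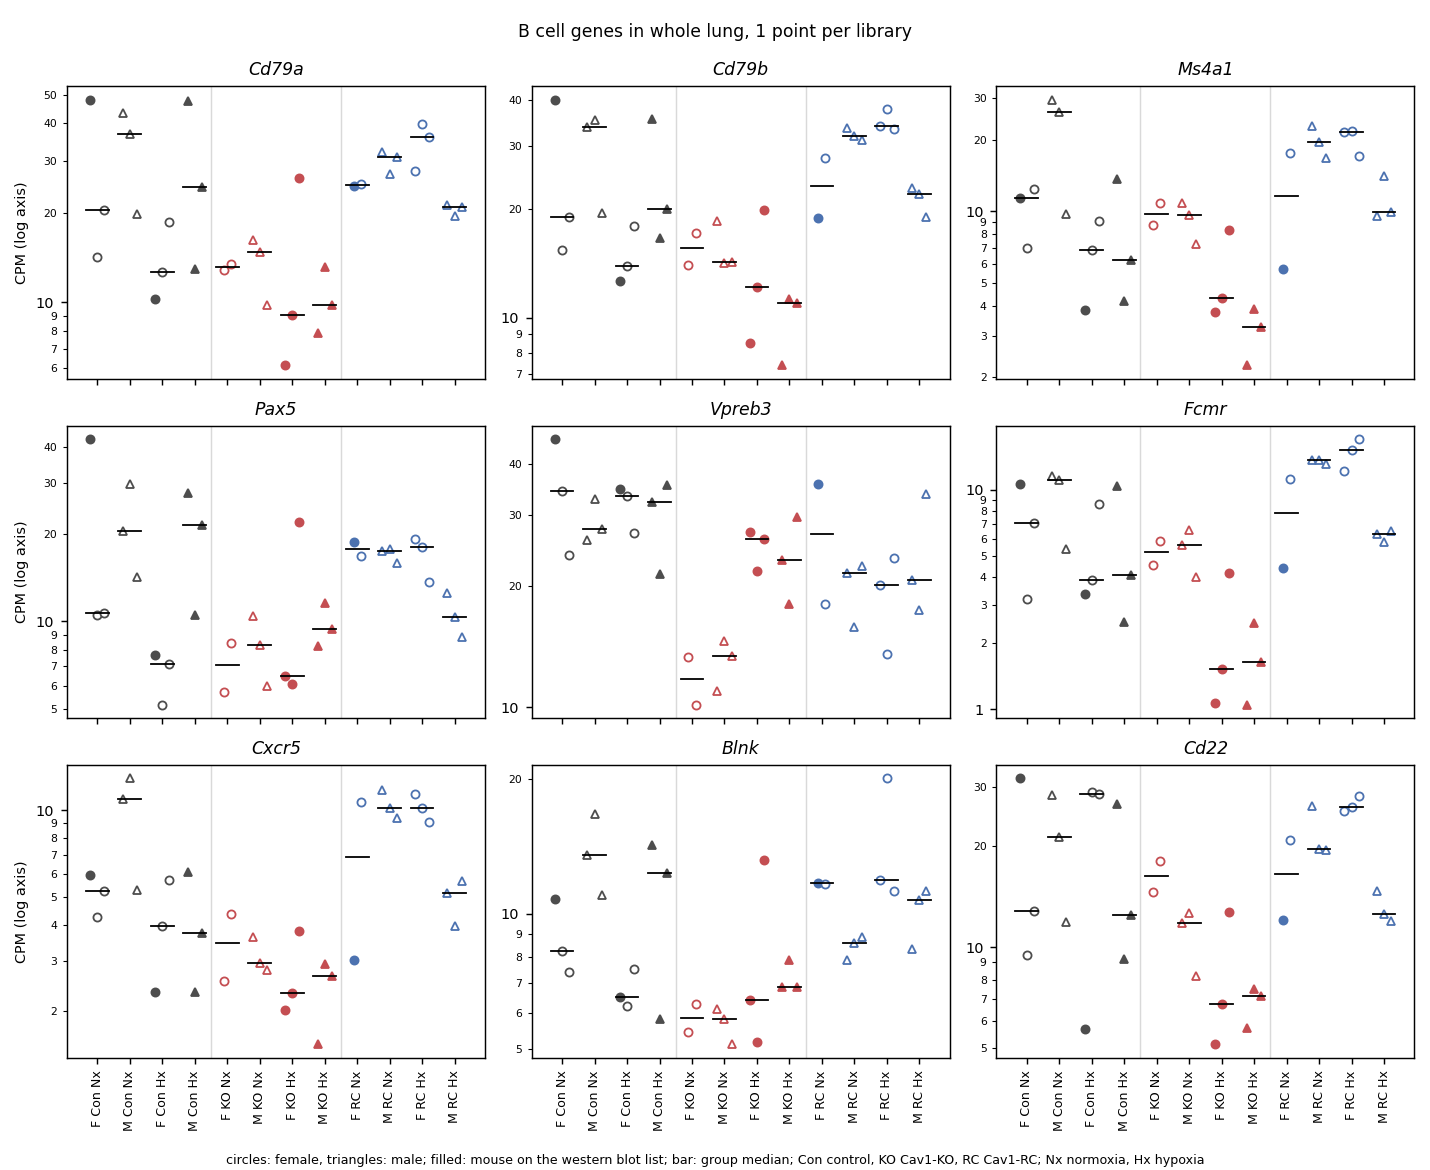
CPM of each of the 9 genes (log axis) in every library, 1 point each, by group. In group names F and M give the sex, Con stands for Control, Nx and Hx for oxygen level, and KO and RC are short for the Cav1 genotypes. Filled points are mice on the western blot list and bars are group medians. The lowest Fcmr, Ms4a1 and Cxcr5 library is a Cav1-KO male in Hypoxia, while the 4 lowest Vpreb3 libraries are Cav1-KO in Normoxia.

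Summed over the 9 genes, the 4 Cav1-KO groups had the lowest group medians, from 69.2 CPM in females in Hypoxia to 89.5 CPM in males in Normoxia. Female Control groups and male Cav1-RC Hypoxia came next, at 115, 119 and 121 CPM. The highest medians were those of male Cav1-RC Normoxia (168), female Cav1-RC Hypoxia (189) and male Control Normoxia (217). Most neighbours in this order overlapped: of 11 steps, only those from male Cav1-KO Hypoxia to female Cav1-KO Normoxia and, within Cav1-RC Normoxia, from females to males had libraries that did not overlap. Of the 12 groups, 3 of the 4 Control groups had the largest SD, from 55.2 CPM in males in Normoxia to 78.0 CPM in females in Normoxia. The highest library of all was female Control Normoxia replicate 1, on the western blot list, with a sum of 248 CPM against 107 and 119 CPM in the other 2 mice of its group.

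**Figure D2:**
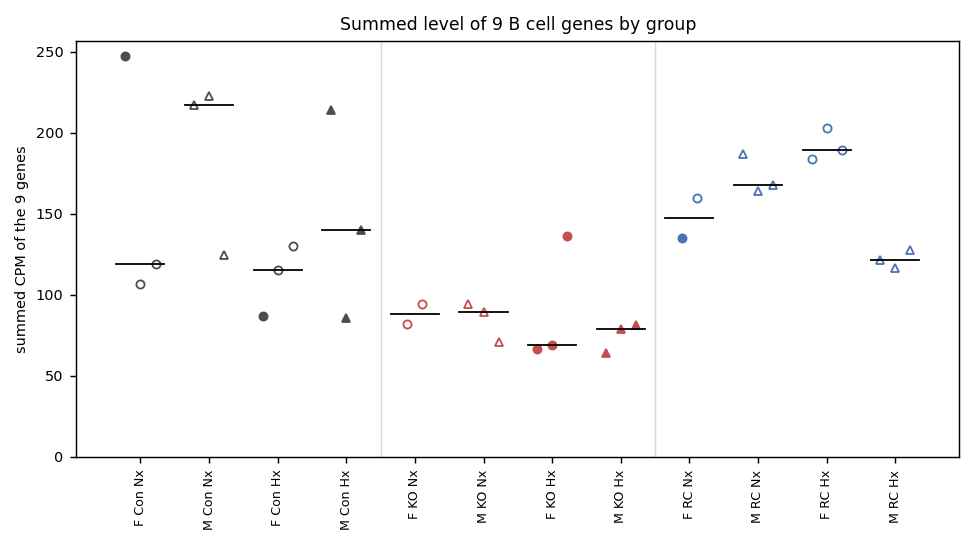
Summed CPM of the 9 genes in each library by group (linear axis from 0; symbols as in the plot of single genes). Cav1-KO libraries lie at or below 94.5 CPM except 1 female in Hypoxia at 136.4 CPM, and Cav1-RC libraries lie above 116 CPM.

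In room air the 9 genes had differences below 0 between Cav1-KO and Control lungs in each sex, and members were called in males but not in females. In males 5 were called lower, that is with a log2 fold change below -1 and an adjusted p under 0.05: Cd79a, Blnk, Cxcr5, Pax5 and Vpreb3. Of all genes tested in that comparison, 3.74% were called lower. None of these 6 libraries was on the western blot list or against its sex label. Cd79a stood at 16.3, 14.7 and 9.80 CPM in male Cav1-KO and at 43.5, 36.8 and 19.8 CPM in male Control lungs. All 3 knockout libraries lay below all 3 Control libraries, with a log2 fold change of -1.32 ± 0.30 (SE, adjusted p = 0.030). Cd79b, its partner chain, did not overlap either and had a log2 fold change of -0.93 ± 0.23 (SE, adjusted p = 0.037), just short of the fold threshold. Blnk, the adaptor, was at 6.14, 5.84 and 5.12 CPM against 13.5, 16.7 and 11.03 CPM, and fell by 1.29 on the log2 scale (adjusted p = 0.0057).

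Among the surface receptors, Cxcr5 fell most in these males. Its level was 3.61, 2.95 and 2.78 CPM in Cav1-KO and 10.9, 12.9 and 5.28 CPM in Control, a log2 fold change of -1.65 ± 0.33 (SE, adjusted p = 0.019). Ms4a1, Cd22 and Fcmr had log2 fold changes of -1.26, -0.93 and -0.80 that did not pass the test, and male Control replicate 3 lay within the knockout range for all 3 receptors. Pax5 was at 10.4, 8.29 and 5.99 CPM against 20.5, 29.7 and 14.2 CPM, a log2 fold change of -1.40 ± 0.29 (SE, adjusted p = 0.023). Vpreb3 was at 10.96, 14.6 and 13.4 CPM against 25.9, 32.7 and 27.6 CPM, with no overlap and the smallest SE of the 9 genes, at a log2 fold change of -1.16 ± 0.14 (SE, adjusted p = 0.0034). In all, 6 of the 9 genes had every male knockout library below every male Control library, as did 15.8% of all genes tested. Left out in turn, male Control Normoxia replicate 3 raised the number called lower to 9, while male Control Normoxia replicate 2 or any of the 3 knockout libraries lowered it to 2.

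In females all 9 genes were again below 0, with log2 fold changes from -1.62 to -0.09, but none was called (0.0405% of all genes were called lower, 1 of the 9 genes had an unadjusted p under 0.05, as had 11.5% of all genes, and DESeq2 called 1 lower, as it did 2.15% of all genes). Vpreb3 was at 13.3 and 10.1 CPM in the 2 knockout females and at 46.1, 34.4 and 23.9 CPM in the 3 Control females, without overlap, with a log2 fold change of -1.59 ± 0.33 (SE, adjusted p = 0.17). Cd79a, Pax5 and Blnk did not overlap either, which together makes 4 of 9 genes against 16.8% of all genes tested. Without female Control Normoxia replicate 1, the library that stood above the rest, Vpreb3 alone was called lower (log2 fold change -1.32 ± 0.23 SE, adjusted p = 0.023). Averaged over both sexes, 4 genes were called lower against 4.4% of all genes: Cd79a (-1.21 ± 0.32 SE, adjusted p = 0.034), Cxcr5 (-1.13 ± 0.26 SE, adjusted p = 0.015), Pax5 (-1.51 ± 0.40 SE, adjusted p = 0.031) and Vpreb3 (-1.38 ± 0.18 SE, adjusted p = 9.2e-04). Blnk, at -0.96 ± 0.16 (SE, adjusted p = 0.0034), missed the fold threshold alone. This count fell to 2 without female Control Normoxia replicate 1, male Control Normoxia replicate 2 or any male Cav1-KO library, and to 1 without female Cav1-KO Normoxia replicate 1.

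In room air the 9 genes had differences above 0 between Cav1-RC and Cav1-KO lungs in each sex, and members were called in males but not in females. In males all 9 lay above Cav1-KO in Cav1-RC with no overlap of libraries (15.2% of all genes did the same), and 7 were called higher, against 2.27% of all genes. Cxcr5 rose most, from 3.61, 2.95 and 2.78 CPM in Cav1-KO to 11.8, 10.2 and 9.36 CPM in Cav1-RC, a log2 fold change of 1.76 ± 0.16 (SE, adjusted p = 8.0e-05). Fcmr followed, at 5.64, 6.57 and 4.03 CPM against 13.7, 13.7 and 13.2 CPM, with a log2 fold change of 1.33 ± 0.16 (SE, adjusted p = 5.2e-04). Cd79a (1.15), Ms4a1 (1.11), Pax5 (1.06), Cd79b (1.05) and Cd22 (1.02) rose by log2 fold changes close to each other. Vpreb3 and Blnk had the smallest differences, 0.62 ± 0.15 (SE, adjusted p = 0.021) and 0.58 ± 0.14 (SE, adjusted p = 0.021), past the p threshold but not the fold threshold.

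These males include the 2 Cav1-RC libraries with female-level Xist. Left with replicate 3 alone, whose spread is then taken from the Cav1-KO group, 3 genes were called higher: Cxcr5 (1.59 ± 0.23 SE, adjusted p = 6.6e-04), Fcmr (1.29 ± 0.23 SE, adjusted p = 0.0027) and Cd79a (1.19 ± 0.20 SE, adjusted p = 0.0016), and the others had log2 fold changes from 0.64 for Blnk to 1.00 for Cd79b. Without male Cav1-KO Normoxia replicate 3 of all 6 libraries, 2 genes were called, and when all 34 libraries were fitted at once, with or without a term for the western blot list, Cxcr5 alone was called. In females, with 2 libraries a group, all 9 differences were above 0 and 5 genes did not overlap (20.4% of all genes), from 0.02 to 1.34 on the log2 scale, and none was called (0.0294% of all genes were called higher, 4 of the 9 genes had an unadjusted p under 0.05, as had 8.73% of all genes, and DESeq2 called 1 higher, as it did 1.52% of all genes). Female Cav1-RC replicate 1, on the western blot list, held Ms4a1 at 5.70 CPM and Cxcr5 at 3.02 CPM against 17.6 and 10.7 CPM in replicate 2, while Cd79a and Blnk were alike in both. A fit without replicate 2 left 1 Cav1-RC female, so its spread came from the Cav1-KO group alone.

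Averaged over both sexes, Cd79a (1.04 ± 0.13 SE, adjusted p = 0.0013), Pax5 (1.20 ± 0.17 SE, adjusted p = 0.0019) and Cxcr5 (1.38 ± 0.31 SE, adjusted p = 0.020) were called higher in Cav1-RC than in Cav1-KO, against 2.96% of all genes, and Cxcr5 alone was called in the fit over all libraries, with or without the term for the list. The number was 1 without male Cav1-KO Normoxia replicate 3 and 2, Cd79a and Pax5, without the 2 male Cav1-RC libraries of doubtful sex. Between Cav1-RC and Control in room air no member was called in either sex or over both, by edgeR or by DESeq2, and none in males or over both without those 2 libraries. The differences over both sexes ran from -0.46 for Vpreb3 to 0.34 for Fcmr with SE from 0.15 to 0.37, no member had an unadjusted p under 0.05 against 13.1% of all genes, and 1.12% and 1.16% of all genes were called lower and higher. In females, where 0.137% of all genes were called and 4.18% had an unadjusted p under 0.05, no member had, and in males, where 2.45% were called and 23.1% had, 2 had. In males Blnk and Vpreb3 were below every Control library, at -0.72 ± 0.18 (SE, adjusted p = 0.067) and -0.55 ± 0.16 (SE, adjusted p = 0.094), and Fcmr was above every Control library, at 0.52 ± 0.27 (SE, adjusted p = 0.29). None of the 3 passed the test, and libraries of these males did not overlap for 13.2% (lower) and 14.9% (higher) of all genes.

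**Figure D3:**
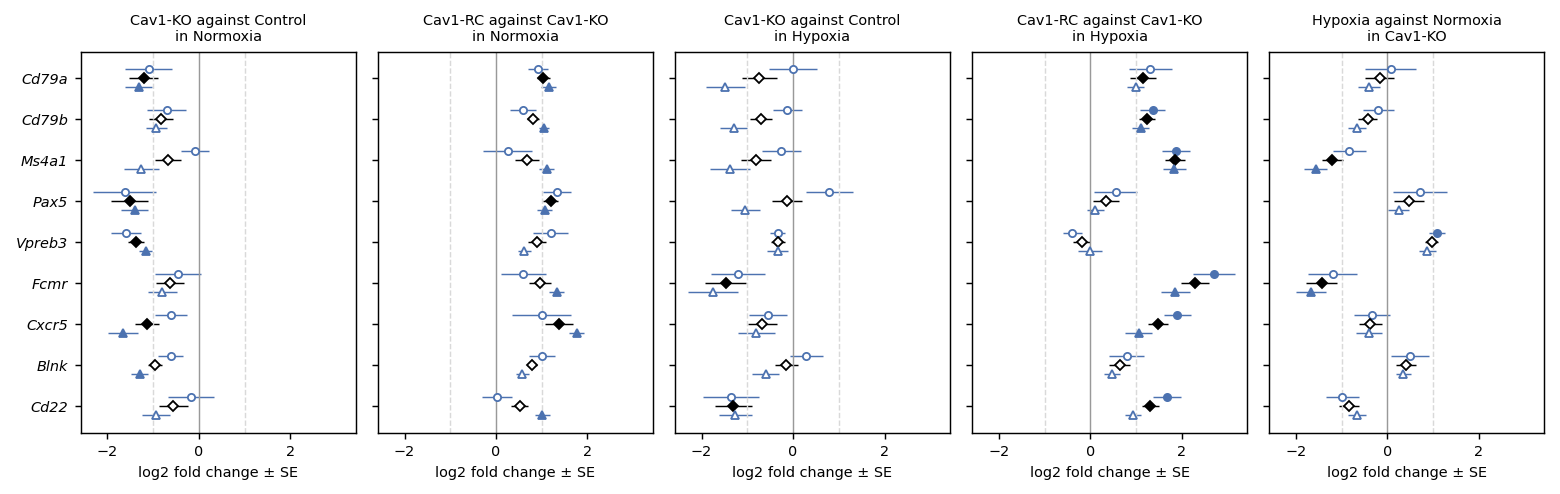
Log2 fold change with its SE for each gene in 5 comparisons (females circles, males triangles, mean of both sexes black diamonds). Filled symbols are past both thresholds, dashed lines mark -1 and 1; in Normoxia the knockout is left of 0 and the reconstitution right of 0 for all 9 genes, and in Hypoxia no symbol is filled for Pax5 or Vpreb3 between Cav1-RC and Cav1-KO.

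After 6 weeks of hypoxia Fcmr and Cd22, receptors that set the threshold of B cell responses, were called lower in Cav1-KO than in Control over both sexes, against 2.2% of all genes. Fcmr was at 1.07, 1.53 and 4.16 CPM in female and 1.05, 2.48 and 1.65 CPM in male Cav1-KO lungs. In Control lungs it was at 3.37, 3.89 and 8.59 CPM in females and 10.4, 2.49 and 4.10 CPM in males. Only the males did not overlap, and the log2 fold change over both sexes was -1.48 ± 0.44 (SE, adjusted p = 0.045). Cd22 had a log2 fold change of -1.31 ± 0.40 (SE, adjusted p = 0.046), with Control females 2 and 3 at 29.1 and 28.6 CPM and replicate 1, on the western blot list, at 5.71 CPM. Both calls rest on single libraries, since the number called was 0 or 1 without any of 9 of the 12 libraries, all but female Control replicate 1, male Control replicate 2 and female Cav1-KO replicate 3. It was 0 with replicate number as a block. Whether the knockout's difference in Hypoxia departs from that in room air was not tested.

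In males, where all 6 libraries were on the western blot list, all 9 genes were below 0, from -1.75 for Fcmr to -0.34 for Vpreb3. None was called, against 0.58% of all genes, although 6 of the 9 genes had an unadjusted p under 0.05, as had 19.5% of all genes, and DESeq2 called 6 lower, against 1.64% of all genes. Male Control replicate 2, the library with female-level Xist, was the lowest Control library for all 9 genes. Without it 6 genes were called lower: Fcmr (-2.09 ± 0.47 SE, adjusted p = 0.047), Cd79a (-1.81 ± 0.30 SE, adjusted p = 0.016), Ms4a1 (-1.67), Cd22 (-1.53), Cd79b (-1.49) and Pax5 (-1.34). Vpreb3 stayed at -0.51 ± 0.20 (SE, adjusted p = 0.20). In females no member was called (0.458% of all genes were called lower, 29% had an unadjusted p under 0.05, and no member had one or was called by DESeq2), and Cd79a was at 6.14, 9.10 and 26.1 CPM in Cav1-KO and 10.2, 12.7 and 18.6 CPM in Control, wholly overlapping. Without female Control replicate 1, 1 member was called.

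Between Cav1-RC and Cav1-KO in Hypoxia the members split. Over both sexes, 6 genes were called higher in Cav1-RC, against 8.61% of all genes: Fcmr, Ms4a1, Cxcr5, Cd22, Cd79b and Cd79a. Fcmr rose most, to 12.2, 15.2 and 17.1 CPM in female and 6.28, 5.81 and 6.53 CPM in male Cav1-RC lungs, above every Cav1-KO library of the same sex, with a log2 fold change of 2.29 ± 0.30 (SE, adjusted p = 7.4e-05). Ms4a1 was at 21.7, 21.9 and 17.1 CPM in female Cav1-RC and 3.78, 4.30 and 8.37 CPM in female Cav1-KO lungs. In males it was at 9.61, 14.1 and 9.89 CPM in Cav1-RC and 2.25, 3.88 and 3.26 CPM in Cav1-KO. Neither sex overlapped, and the log2 fold change was 1.86 ± 0.22 (SE, adjusted p = 3.4e-05).

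Cxcr5 (1.48 ± 0.21 SE, adjusted p = 1.3e-04), Cd22 (1.32 ± 0.19 SE, adjusted p = 1.2e-04), Cd79b (1.24 ± 0.18 SE, adjusted p = 1.4e-04) and Cd79a (1.16 ± 0.28 SE, adjusted p = 0.0042) were the other genes called. Blnk was higher by less, 0.64 ± 0.23 (SE, adjusted p = 0.030). Pax5 and Vpreb3 did not pass the test. In females Pax5 was at 19.3, 18.1 and 13.7 CPM in Cav1-RC and 6.48, 6.08 and 21.95 CPM in Cav1-KO lungs, where replicate 3 lay above every Cav1-RC female and the other 2 below. Without that library the female log2 fold change went from 0.55 to 1.43 (adjusted p = 0.016) and was called. In males Pax5 was at 12.6, 10.3 and 8.86 CPM in Cav1-RC and 8.21, 11.6 and 9.42 CPM in Cav1-KO lungs, and its log2 fold change over both sexes was 0.34 ± 0.28 (SE, adjusted p = 0.33). Vpreb3 was at 20.6, 17.4 and 33.7 and 23.2, 18.0 and 29.7 CPM in the same males, with -0.19 ± 0.18 (SE, adjusted p = 0.40) over both sexes. In females alone 5 members were called higher, against 5.58% of all genes, and in males 4, against 8.16%. Libraries did not overlap for 6 members in females (21.8% of all genes) and 7 in males (28.1%). Without female Cav1-KO replicate 3, which had the highest level of 8 of the 9 genes in its group, 8 were called in females, and without male Cav1-KO replicate 1, the lowest of its group for most, 2 in males.

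All Cav1-KO Hypoxia mice and no Cav1-RC Hypoxia mouse were on the western blot list, so genotype and list cannot be told apart in this contrast. When all 34 libraries were fitted at once with a term for the list, estimated from the 3 groups that hold both kinds, the number called over both sexes went from 6 to 2, in females from 5 to 2 and in males from 4 to 0. Fcmr stayed called at 2.07 ± 0.57 (SE, adjusted p = 0.025) and Cd79b at 1.47 ± 0.35 (SE, adjusted p = 0.012). Pax5 moved from 0.34 to 1.30 ± 0.46 (SE, adjusted p = 0.082), and Vpreb3 changed sign, from -0.19 to 0.40 ± 0.28 (SE, adjusted p = 0.41). Against Control in Hypoxia, female Cav1-RC had 8 of 9 members above 0, with Cd79b called higher (1.27 ± 0.18 SE, adjusted p = 0.029) against 0.572% of all genes. Its level was 34.05, 37.9 and 33.4 CPM in Cav1-RC and 12.6, 13.9 and 17.9 CPM in Control. In all, 7 genes had every Cav1-RC female above every Control female (7.04% of all genes), and Vpreb3 was below every Control female, at -0.72 ± 0.23 (SE, adjusted p = 0.34). DESeq2 called 7 members higher here, against 2.09% of all genes, and the edgeR count moved between 0 and 3 when 1 library was left out, with 3 without female Control replicate 1 and 0 without any of the other 5.

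In males of the same contrast no member was called (4.2% of all genes were called lower and 5.69% higher, DESeq2 called 0 members, and 1 member had an unadjusted p under 0.05, as had 47.4% of all genes), and 1 was called without male Control replicate 1 or 2. Over both sexes Ms4a1 was called higher, at 1.06 ± 0.28 (SE, adjusted p = 0.040), against 2.68% of all genes. No member was called with the term for the western blot list, with the replicate block, or without any 1 of 10 of the 12 libraries, the male Control library of doubtful sex among them. Without male Control replicate 1, 3 members were called, and without female Control replicate 3 the count stayed at 1.

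Between Hypoxia and Normoxia 6 of the 9 members of Cav1-KO lungs had differences below 0 over both sexes and 3, Vpreb3 among them, above 0, in a contrast that cannot be told apart from the western blot list. Over both sexes Fcmr and Ms4a1 were called lower, against 8.46% of all genes, while Vpreb3 had a log2 fold change just under the threshold. Fcmr stood at 4.56 and 5.87 CPM in female and 5.64, 6.57 and 4.03 CPM in male Cav1-KO lungs in room air, above every Cav1-KO Hypoxia library of its sex, with a log2 fold change of -1.44 ± 0.33 (SE, adjusted p = 0.0028). Ms4a1 stood at 8.73 and 10.8 CPM in females and 10.8, 9.63 and 7.30 CPM in males in room air, again above every Cav1-KO Hypoxia library of its sex, with -1.20 ± 0.23 (SE, adjusted p = 6.5e-04). Every Hypoxia library lay below every Normoxia library for 3 members in females, against 31.5% of all genes, and for 4 in males, against 32.9%. Every one lay above for 1 member in females (Vpreb3) and 2 in males (Vpreb3 and Blnk), against 32.8% and 31.1% of all genes. Fcmr and Ms4a1 were also called lower in males alone, against 8.97% of all genes. Vpreb3 rose from 13.3 and 10.1 to 27.2, 21.7 and 26.2 CPM in females, where it was called (1.08 ± 0.17 SE, adjusted p = 0.0038, against 6.29% of all genes called higher). In males it went from 10.96, 14.6 and 13.4 to 23.2, 18.0 and 29.7 CPM, 0.87 ± 0.19 (SE, adjusted p = 0.0042). Chchd10, the gene just upstream of Vpreb3, was called higher over both sexes at 1.03 ± 0.07 (SE, adjusted p = 7.0e-07) and Foxj1, of ciliated airway cells, at 1.23 ± 0.15 (SE, adjusted p = 2.8e-05), and their part in the Vpreb3 difference was not tested. Over both sexes Cd22 had -0.83 ± 0.22 (SE, adjusted p = 0.0053), past the p threshold but not the fold threshold, and Cd79a, Cd79b, Cxcr5, Pax5 and Blnk had an unadjusted p above 0.05.

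Every Cav1-KO Hypoxia mouse and no Cav1-KO Normoxia mouse was on the western blot list. With the term for the list no member was called in either sex or over both, and Fcmr, Ms4a1 and Vpreb3 had log2 fold changes of -1.23 ± 0.59 (SE, adjusted p = 0.32), -0.52 ± 0.48 (SE, adjusted p = 0.66) and 0.38 ± 0.29 (SE, adjusted p = 0.58). Single libraries also moved the count in females, which was 4 without Cav1-KO Hypoxia replicate 3 and 0 without Cav1-KO Normoxia replicate 2. In Control lungs no member was called for Hypoxia against Normoxia in either sex or over both, with 0.0117%, 3.93% and 0.453% of all genes called lower in females, males and both. All 9 differences over both sexes were below 0, from -1.05 for Ms4a1 to -0.05 for Vpreb3, and 3 had an unadjusted p under 0.05, as had 1 in females and 2 in males, against 13.6%, 4.79% and 36.1% of all genes. DESeq2 called 2 members lower in males, against 4.66% of all genes, 0 in females and 0 over both sexes. In males all Hypoxia mice and no Normoxia mouse were on the western blot list, and no member was called in males or over both without the Hypoxia library of doubtful sex.

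Cav1-RC lungs, of which only 1 female was on the western blot list, had differences of mostly opposite sign in males and females. In males Fcmr and Cxcr5 were called lower in Hypoxia, against 0.856% of all genes. Fcmr went from 13.7, 13.7 and 13.2 to 6.28, 5.81 and 6.53 CPM (-1.10 ± 0.13 SE, adjusted p = 0.0033), and Cxcr5 from 11.8, 10.2 and 9.36 to 5.17, 3.96 and 5.69 CPM (-1.06 ± 0.18 SE, adjusted p = 0.012). In all, 7 members had every Hypoxia male below every Normoxia male, against 17% of all genes. Without the 2 Normoxia libraries of doubtful sex no member was called, at log2 fold changes of -1.06 ± 0.21 (SE, adjusted p = 0.13) for Fcmr and -0.90 ± 0.28 (SE, adjusted p = 0.32) for Cxcr5, and without Normoxia replicate 1 or Hypoxia replicate 2 alone 1 was called. Over both sexes no member was called either, with 1.22% of all genes called, and 1 member had an unadjusted p under 0.05 against 15.2% of all genes. In females 7 of 9 differences were above 0, up to 0.91 for Fcmr, and none was called (0.0228% of all genes were called higher, 2 of the 9 genes had an unadjusted p under 0.05, as had 5.2% of all genes, and DESeq2 called 0). Every Hypoxia female lay above every Normoxia female for 4 members (Cd79a, Cd22, Cd79b and Fcmr), against 9.74% of all genes.

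The difference between the sexes in this response did not pass the test for any member, or for any of the 18211 genes tested. Male Cav1-RC Normoxia replicates 1 and 2 held Xist at 751.9 and 869.8 CPM and Ddx3y at 0 CPM. This contrast, and those below that use male Cav1-RC Normoxia, thus do not cleanly set males against females. The female minus male differences ran from -0.78 for Vpreb3 to 2.02 for Fcmr, 7 of 9 had an unadjusted p under 0.05 against 5.82% of all genes, the lowest adjusted p in edgeR's quasi-likelihood test was 0.74, and DESeq2 called 4, against 0.0988% of all genes. A fit without female Cav1-RC Normoxia replicate 2 left that group with 1 mouse, on the western blot list, and the other groups supplied all the spread. In the other 8 comparisons no member, and no other gene, was called for a difference between the sexes either with all libraries in the fit. For Cav1-RC against Control in Hypoxia 3 members, Cd79a, Cd79b and Pax5, were called without the male Control library of doubtful sex, and 3 without female Control Hypoxia replicate 1. For Cav1-RC against Cav1-KO in Normoxia, the fit without female Cav1-RC Normoxia replicate 2 again rested on 1 mouse in that group. Leaving out any other single library gave 0 in these 8 comparisons. With all libraries, the number with an unadjusted p under 0.05 ran from 0 to 4, and DESeq2 called 3 in Cav1-RC against Control in Hypoxia, against 2.82% of all genes, and 0 in the rest.

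The proportions of the members to each other moved with the western blot list. Taking Cd79a as the base, the median level of Ms4a1 relative to Cd79a was 0.659 in the 22 libraries off the list and 0.308 in the 12 on it. Fcmr had 0.368 and 0.177, and Cxcr5 0.277 and 0.188. Pax5 and Vpreb3 went the other way, at 0.553 and 0.860 for Pax5 and 0.891 and 1.56 for Vpreb3. Cd22, the remaining surface receptor, had 0.725 and 0.616. Relative to Cd79a, Ms4a1, Fcmr and Cxcr5 were thus low and the transcription factor and Vpreb3 high on the list. There 10 of the 12 mice were in Hypoxia and 6 of them Cav1-KO.

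**Figure D4:**
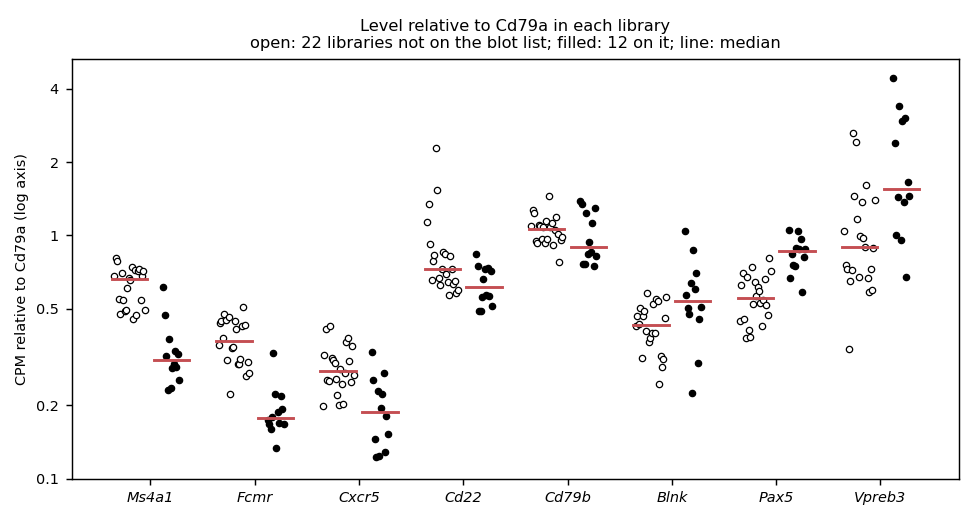
CPM of 8 genes relative to the CPM of Cd79a in the same library (log axis), 22 libraries off the western blot list (open) and 12 on it (filled), with medians as lines. Ms4a1, Fcmr and Cxcr5 sit lower and Pax5 and Vpreb3 higher in the filled points.

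Within groups, the term for the list, fitted over 34 libraries, gave log2 differences of 0.97 ± 0.36 (SE, adjusted p = 0.031) for Pax5 and 0.59 ± 0.22 (SE, adjusted p = 0.027) for Vpreb3, on minus off the list. The other 7 had adjusted p from 0.099 to 0.74, with Cxcr5 at -0.69 ± 0.34 and Ms4a1 at -0.68 ± 0.37. No member passed both thresholds, against 7.3% of all genes called higher and 6.21% called lower. Cd22 had a pattern of its own. Relative to Cd79a it stood at 2.29 and 1.53 in female Control Hypoxia replicates 2 and 3, against a median of 0.725 off the list.

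Across libraries most members kept step. The Pearson correlation of log2 CPM between 2 members, over all 36 pairs, had a median of 0.906 in the 12 libraries on the list and 0.753 in the 22 off it, with a lowest value of 0.537 and -0.0035. Against the mean of all 9, a mean that holds the gene itself, Cd79a was closest (0.985 on and 0.974 off the list) and Vpreb3 farthest (0.686 and 0.320). These correlations describe libraries that share genotype and oxygen groups and carry no test. Of 19861 genes ranked the same way, the 12 other genes most like the members included Ly6d, Cd37, Ltb, Bank1, Ptprcap, P2ry10, Fcer2a, Tnfrsf13c, Gpr18, Cr2 and Spib. Ly6d led with 0.902 and 0.903. Cr2 (complement receptor), Fcer2a (CD23), Tnfrsf13c (BAFF receptor), Bank1 (a B cell adaptor) and Spib (a B cell transcription factor) are textbook B cell genes, whereas Ltb, Ptprcap and Cd37 are also used by T cells.

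Vpreb3, the member least like the others, was also set beside genes that are not B cell genes. Chchd10, which encodes a mitochondrial protein and was picked out after its values were seen, lies upstream of Vpreb3 on the same strand (chr10:75933130-75937747, mm10) without overlapping it. Its log2 CPM had a Pearson correlation with Vpreb3 of 0.799 over the 12 libraries on the list and 0.812 over the 22 off it, beside 0.614 and 0.192 for the mean of the other 8 members. For Foxj1 the values were 0.364 and 0.750. In Normoxia Chchd10 ran from 36.5 to 43.1 CPM in male Cav1-KO and from 41.1 to 69.6 CPM in male Control lungs, overlapping, and its log2 fold change over both sexes was -0.93 ± 0.24 (SE, adjusted p = 0.027). Its term for the list was 0.98 ± 0.19 (SE, adjusted p = 1.4e-04). The part of Chchd10 and of airway genes in the Vpreb3 values was not tested.

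Other genes of the B cell receptor pathway were counted beside the members. Of 19 such genes outside the members, 2 were called lower in Cav1-KO against Control in Normoxia over both sexes, where 4.4% of all genes were, and 5 higher in Cav1-RC against Cav1-KO in Hypoxia, where 8.61% were. Their medians were -0.06 and 0.67 on the log2 scale, beside -0.96 and 1.24 for the 9 members and -0.027 and -0.0036 for all genes. Among the lower genes was Cr2, a complement receptor (-1.35 ± 0.35 SE, adjusted p = 0.029), a call lost without any 1 of 6 of the 11 libraries. Pik3ap1 and Plcg2, a kinase adaptor and a phospholipase that myeloid cells also use, led the list by smallest adjusted p over all comparisons. In Cav1-RC against Cav1-KO in Hypoxia Pik3ap1 rose by 2.50 ± 0.39 (SE, adjusted p = 2.3e-04) and Plcg2 by 1.12 ± 0.16 (SE, adjusted p = 1.0e-04), while Cd81 and Ptpn6 had 0.55 and 0.85. Genotype and the western blot list cannot be told apart in that contrast, and the term for the list, on minus off the list, was -2.51 ± 0.56 (SE, adjusted p = 7.7e-04) for Pik3ap1 and -0.84 ± 0.26 (SE, adjusted p = 0.0097) for Plcg2. In Cav1-KO against Control in Normoxia none of these 4 was called, and Ptpn6 had 0.04 and Pik3ap1 0.67. Ighm, the IgM heavy chain that the Cd79 chains carry, was named after its values were seen. It ran from 498 to 7178 CPM in female and from 396 to 503 CPM in male Cav1-RC Hypoxia lungs. Every other group lay at or below 289.9 CPM, and the log2 fold change of Cav1-RC against Cav1-KO in Hypoxia was 2.81 ± 0.64 (SE, adjusted p = 0.0027). Without female Cav1-RC replicate 2, the library with the highest level, it was 1.79, still called, and below that of Fcmr and Ms4a1 over all libraries. Its term for the list was -0.41 ± 0.64 (SE, adjusted p = 0.63).

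Of 18 further B cell surface genes, 1 was called lower in Cav1-KO in Normoxia (median -0.65, with 4.4% of all genes called lower) and 8 were called higher in Cav1-RC against Cav1-KO in Hypoxia (median 0.85, with 8.61% of all genes called higher), where Cd180, a receptor of the Toll-like family, rose by 2.07 ± 0.20 (SE, adjusted p = 1.2e-05). Fcrl5 rose there by 4.73 ± 0.70 (SE, adjusted p = 1.7e-04). The term for the western blot list, which cannot be told apart from genotype in this contrast, was -1.15 ± 0.42 (SE, adjusted p = 0.029) for Cd180, called, and -0.59 ± 0.87 (SE, adjusted p = 0.61) for Fcrl5, not called. In Cav1-RC against Cav1-KO in Normoxia over both sexes, where 2.96% of all genes were called higher, 2 of the 19 receptor pathway genes (median 0.05), 3 of the 18 surface genes (median 0.40) and none of the 13 transcription factors (median 0.02) were. For the knockout in Normoxia Cd24a, also an epithelial gene, had -0.96 ± 0.12 (SE, adjusted p = 6.1e-04), and Cd38 was called in no comparison. Of 13 B cell transcription factors, 6 were called higher in Cav1-RC against Cav1-KO in Hypoxia, among them Ikzf3 (1.27 ± 0.19 SE, adjusted p = 1.6e-04) and Pou2f2 (1.77 ± 0.30 SE, adjusted p = 3.9e-04), and none was called in Cav1-KO against Control in Normoxia. Irf8 and Foxo1, which many cells use, were called in neither. Precursor genes were at the floor: Rag1, Rag2, Dntt and Igll1 had at most 10 counts in any library, so the high Vpreb3 level stood beside next to no recombinase transcript. Vpreb1, which encodes a part of the surrogate light chain, had at most 32 counts. It was called higher in Hypoxia against Normoxia in Cav1-KO (1.25 ± 0.37 SE, adjusted p = 0.011) and lower in Cav1-RC against Cav1-KO in Hypoxia (-1.77 ± 0.50 SE, adjusted p = 0.010), and Cd1d1, the other of the 2 precursor genes that passed the filter there, was called in neither.

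Antibody-secreting and niche genes were read beside the members. In Cav1-KO against Control in Normoxia, 3 of 8 plasma cell genes were called lower, against 4.4% of all genes, led by Jchain, the joining chain of secreted antibody (-4.35 ± 0.61 SE, adjusted p = 0.0013), with Mzb1 at -1.98 ± 0.31 (SE, adjusted p = 0.0026) and Derl3 at -1.43 ± 0.30 (SE, adjusted p = 0.011). Without male Control replicate 1 the difference of Jchain was -3.68. In Hypoxia against Normoxia in Cav1-KO, a contrast that cannot be told apart from the western blot list, 4 of 8 were called higher, against 9.18% of all genes, with Jchain at 3.70 ± 0.89 (SE, adjusted p = 0.0034) and Eaf2 at 1.36 ± 0.29 (SE, adjusted p = 0.0017). Jchain ran from 38.4 to 627 CPM in female and from 29.6 to 387 CPM in male Cav1-KO Hypoxia lungs. Without the highest of each, female replicate 3 or male replicate 2, its log2 fold change was 2.66 or 2.75, called in both. The term for the list was -0.28 ± 1.27 (SE, adjusted p = 0.88) for Jchain and 0.96 ± 0.46 (SE, adjusted p = 0.091) for Eaf2. In Cav1-RC against Cav1-KO in Normoxia, 2 were called higher, against 2.96% of all genes, and in Hypoxia none. Sdc1, which epithelium also makes, had 0.58 in the first and -0.69 in the second of these and was not called. Of the niche and survival genes, 3 of 15 entries were called lower in Cav1-KO in Normoxia and 5 of 14 higher in Cav1-RC against Cav1-KO in Hypoxia (8.61% of all genes). The latter held the homing receptor Ccr7 (1.10 ± 0.24 SE, adjusted p = 0.0020) and the adhesion molecule Icam1 (1.33 ± 0.17 SE, adjusted p = 6.0e-05), with Vcam1 at -0.57. This contrast cannot be told apart from the western blot list, whose term was -1.31 ± 0.24 (SE, adjusted p = 8.4e-05) for Icam1 and -0.26 ± 0.28 (SE, adjusted p = 0.46) for Ccr7. Cxcl13, the ligand of Cxcr5, ran from 1.84 to 22.8 CPM and was among those called, with a log2 fold change of 1.05 ± 0.25 (SE, adjusted p = 0.0039) in Cav1-RC against Cav1-KO in Hypoxia. The Hypoxia call was lost without any 1 of 3 of the 12 libraries for Cxcl13 and without 1 for Ccr7. For the knockout in Normoxia Cxcl13 had -0.72 ± 0.34 (SE, adjusted p = 0.17).

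Genes of other blood cells moved in the same comparisons. Of 20 T cell genes, 7 were called lower in Cav1-KO against Control in Normoxia (median -0.90), 7 in Hypoxia (median -0.62), and 9 were called higher in Cav1-RC against Cav1-KO in Hypoxia (median 0.85), against 4.4%, 2.2% and 8.61% of all genes. Cd3e, of the T cell receptor complex, had -1.04 ± 0.25 (SE, adjusted p = 0.020), -1.67 ± 0.33 (SE, adjusted p = 0.011) and 2.25 ± 0.26 (SE, adjusted p = 3.4e-05) in these 3 comparisons. Trac (2.25 ± 0.29 SE, adjusted p = 6.3e-05), Cd8b1 (2.39 ± 0.19 SE, adjusted p = 3.7e-06) and Cd247 (1.35 ± 0.24 SE, adjusted p = 6.1e-04) rose with it in the last. Genotype and the western blot list cannot be told apart in that last contrast. The term for the list was -0.20 for Cd3e, -0.39 for Trac, -0.64 for Cd8b1 and -0.51 for Cd247, none called. For Trbc1, another of the 20 genes, it was 1.05, called. The Cd3e call in Normoxia was lost without any 1 of 6 of the 11 libraries. The summed level of the 20 genes was 125 to 147 CPM in male Cav1-KO Normoxia, 210.4 to 319 in male Control Normoxia and 193 to 217 in male Cav1-RC Normoxia, and no T cell gene was at 0 in all libraries. The B cell sum without Vpreb3 and the T cell sum had a Pearson correlation on the log2 scale of 0.741 over the 22 libraries off the list and 0.933 over the 12 on it. Cav1-KO libraries overlapped those of the other genotypes on both sums, and the part of one sum in the other was not tested.

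**Figure D5:**
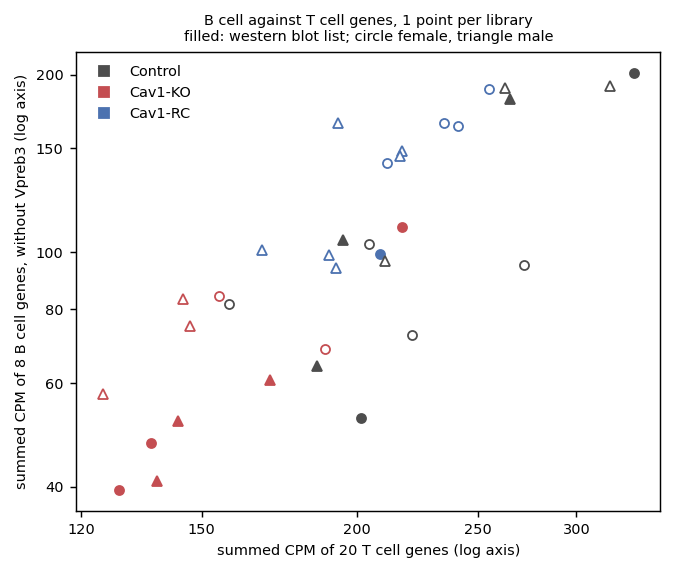
Summed CPM of 8 members (without Vpreb3) against summed CPM of 20 T cell genes in each of 34 libraries, both axes log, coloured by genotype. Circles are females, triangles males and filled points mice on the western blot list. Libraries low on one axis tend to be low on the other, Cav1-KO libraries overlap the other genotypes on both, and the highest library on both axes is a Control female.

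Other cell types gave a mixed background. Of 8 neutrophil genes, 7 were called higher in Cav1-RC against Cav1-KO in Hypoxia, with S100a8 at 1.70 ± 0.44 (SE, adjusted p = 0.0064), S100a9 at 1.64, Retnlg at 1.36 and Camp at 1.63, and none of the 6 tested was called in Cav1-KO against Control in Normoxia. The shares of all genes called were 8.61% higher and 6.13% lower in the former contrast, and 1.38% and 4.4% in the latter. The calls of Retnlg and Camp were lost without any 1 of 6 and 7 of the 12 libraries, that of Adgre1 without any 1 of 2, and in Normoxia those of Siglecf and Scgb1a1 without any 1 of 6 and 2 of 11. Of 7 NK cell genes, 3 were called lower in the former, with Klra8 at -2.40, and none in the latter. Prf1, Gzma and Klrb1c were called in neither. Of 9 macrophage genes, 2 were called higher in Cav1-RC against Cav1-KO in Hypoxia (Cd68 by 1.21 and Adgre1 by 1.06, with C1qb at 0.77) and 1, Siglecf (1.19), in Cav1-KO against Control in Normoxia. The term for the western blot list, which cannot be told apart from genotype in that Hypoxia contrast, was -1.30 for Cd68, -1.64 for Adgre1 and 1.91 for Klra8, each called, and 0.65 for S100a8, not called. Of 7 erythroid genes, 6 were called higher in Cav1-KO against Control in Hypoxia (1.94% of all genes), and 4 lower in Cav1-RC against Cav1-KO in Hypoxia. For the former contrast Hba-a2 stood at 3.65 ± 0.72 (SE, adjusted p = 0.011), Hbb-bt at 3.33 and Slc4a1 at 3.93. Of 4 genes of all leukocytes and 10 of lung structure, none and 2 were called in Cav1-KO against Control in Normoxia, and none of either in Cav1-RC against Cav1-KO in Hypoxia. The 2 were airway genes, Scgb1a1 of club cells (-1.27 ± 0.29 SE, adjusted p = 0.018) and Foxj1 of ciliated cells (-1.13 ± 0.15 SE, adjusted p = 0.0012), which thus moved with the members in this comparison. In Hypoxia against Normoxia in Cav1-KO both were called higher, at 1.68 and 1.23. That contrast cannot be told apart from the western blot list, whose term was 1.23 ± 0.25 (SE, adjusted p = 3.3e-04) for Scgb1a1, called, and 0.56 ± 0.21 (SE, adjusted p = 0.033) for Foxj1, past the p threshold but not the fold threshold. The level of the 4 leukocyte genes was 343 to 446 CPM in male Cav1-KO Normoxia and 389.6 to 585 CPM in male Control Normoxia. In females it was 564 to 585 CPM in Cav1-KO and 375 to 600 CPM in Control, with the higher median in Cav1-KO. What share of the members' differences goes with these cell types was not tested.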

How the data were processed

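Whole lungs of 34 labelled mice gave poly-A selected, strand-directional libraries. The authors aligned reads to mm10 with HISAT2 2.0.5 and deposited whole-number counts per gene from featureCounts 1.5.0-p3, both versions from the submitters' processing notes. The deposited FPKM values were used only to compare levels between genes. A column of a library with uncertain identity entered no comparison.

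Counts were tested with edgeR 4.0.16 in R 4.3.3 (TMM factors, filterByExpr, quasi-likelihood F test, Benjamini-Hochberg adjustment over all genes tested), pairwise within a sex on the libraries of the 2 groups, and over 4 groups for the mean of the female and male changes and for their difference. Calls needed a log2 fold change beyond 1 in size with an adjusted p under 0.05, and a difference between the sexes at adjusted p under 0.05 alone. All 9 members passed the low-count filter in each comparison. CPM used TMM-scaled totals. The scripts were tested on simulated data.

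The members and the gene lists (further B cell receptor, surface and transcription factor genes, precursor, plasma cell, niche, T cell, NK cell, neutrophil, macrophage, erythroid, leukocyte and lung structure genes) were chosen with earlier results of these data known. Every member was named, with up to 4 genes per list by smallest adjusted p over the 9 comparisons of both sexes, defining markers, and the 12 genes whose log2 CPM (prior count 2) was most like the members, ranked by the lower of the correlations on and off the western blot list. Some genes that these rules name are not reported here, and genes named besides these were chosen after their values were seen. Alternatives were DESeq2 1.42.0 and its size factors, no filter, a fit over all libraries without and with a term for the western blot list, replicate number as a block, and fits without single libraries, without libraries whose Xist and Ddx3y went against their sex label, and without libraries on the list. Totals of 12425535 to 33343006 counts give the depth, and intervals from replicates cover mice and counting together.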

Additional observations from a re-analysis of the deposited data

How the results depend on the processing

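Of the counts of members called, 192 under an alternative stayed within 1.5 times the reported count and 56 moved. The summed CPM of the 12 groups moved by less than their SD with DESeq2 size factors, which moved no count of members past 1.5 times.

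Without single libraries, the reported counts ranged as follows. A group of 2 females that lost 1 held a single mouse, and its fits took all the spread from the other groups. In females and males, Cav1-KO against Control in Normoxia gave 0 to 1 and 2 to 9, Cav1-RC against Cav1-KO in Normoxia 0 to 3 and 2 to 7, Cav1-KO against Control in Hypoxia 0 to 1 and 0 to 6, Cav1-RC against Cav1-KO in Hypoxia 4 to 8 and 2 to 5, and Cav1-RC against Control in Hypoxia 0 to 3 and 0 to 1. Hypoxia against Normoxia gave 0 to 4 and 2 to 3 in Cav1-KO, and 0 to 0 and 1 to 2 in Cav1-RC. Over both sexes the first 5 gave 1 to 5, 1 to 4, 0 to 3, 5 to 6 and 0 to 3, and Hypoxia in Cav1-KO 2 to 3. Differences between the sexes reached 6 for Cav1-RC against Cav1-KO in Normoxia and for Hypoxia in Cav1-RC, both without female Cav1-RC Normoxia replicate 2, and 3 for Cav1-RC against Control in Hypoxia, without female Control Hypoxia replicate 1 or male Control Hypoxia replicate 2.

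In Cav1-KO against Control in Normoxia, females went from 0 to 1 (DESeq2, 1 fit over all libraries without or with the list term, replicate block, only libraries off the list) or 2 (no filter), males from 5 to 3 (1 fit), and both sexes from 4 to 2 (off the list). In Cav1-RC against Cav1-KO in Normoxia, females went from 0 to 1 (DESeq2) or 2 (no filter), males from 7 to 1 (1 fit, either way) or 3 (without doubtful sex), and both from 3 to 1 (1 fit, either way). In Cav1-KO against Control in Hypoxia, females went from 0 to 1 (1 fit), males from 0 to 6 (DESeq2, no filter, without doubtful sex), 1 (1 fit) or 4 (list term), and both from 2 to 0 (replicate block). In Cav1-RC against Cav1-KO in Hypoxia the list term gave 2 for 5 in females, 0 for 4 in males and 2 for 6 over both. In Cav1-RC against Control in Hypoxia, females went from 1 to 7 (DESeq2), 4 (no filter), 3 (1 fit, or off the list), 5 (list term) or 2 (replicate block), males from 0 to 1 (without doubtful sex), both from 1 to 0 (list term, block, without doubtful sex), and the difference between the sexes from 0 to 3 (DESeq2, without doubtful sex) or 1 (no filter). For Hypoxia, Control females went from 0 to 1 (list term, off the list), Control males from 0 to 2 (DESeq2, no filter, 1 fit), and Control over both from 0 to 1 (1 fit, either way). Cav1-KO females went from 1 to 2 (DESeq2, no filter), 0 (list term) or 4 (replicate block), and Cav1-KO males and both from 2 to 0 (list term). Cav1-RC males went from 2 to 0 (1 fit, either way, and without doubtful sex), and their difference between the sexes from 0 to 4 (DESeq2) or 6 (no filter). With the list term Vpreb3 in Cav1-RC against Cav1-KO in Hypoxia turned to 0.40 and Pax5 in males of Cav1-RC against Control in Hypoxia to 0.030. The cause of these moves was not tested.

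In no comparison with 3 pairs did every same-numbered pair deviate together at a correlation over 0.1, so replicate numbers were not taken to pair the mice. Some female pairs did: the 2 pairs of Cav1-RC against Control in Normoxia had 0.564 and 0.186. The 3 pairs had 0.468, -0.165 and 0.462 in Cav1-RC against Control in Hypoxia, and 0.417, 0.061 and 0.409 for Hypoxia in Control. The block moved no other count by over 1.5 times. Fits without libraries on the list were not possible where every mouse of a group was on it. Depth left at least 19 counts of each member in each labelled library, and 2 or 3 mice a group limit precision more.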

Other observations

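One library, whose labels mark its identity as uncertain and give female, Cav1-KO and Normoxia only as a possibility, was left out of every group. It held Cd79a at 5.83 CPM, Cd79b at 8.22, Blnk at 5.83, Cd22 at 4.4, Ms4a1 at 1.6, Fcmr at 0.477, Cxcr5 at 1.67, Pax5 at 7.44 and Vpreb3 at 34.4 CPM. Its Cd79a, Cd22, Ms4a1 and Fcmr levels lay below those of all 34 labelled libraries, and its Vpreb3 level lay inside their range. The animal number in its library name stands on the study's western blot list, as a female Cav1-KO mouse in Normoxia. With its identity uncertain, its place on the list is uncertain too. Beside it, Chchd10, the gene upstream of Vpreb3, was at 93.3 CPM (median of the labelled libraries 60.1 CPM) and the ciliated cell gene Foxj1 at 150.1 CPM (median 138 CPM).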
